A study of Caenorhabditis elegans with 12 samples.

Results

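The 6 wild-type libraries of the series, from *Caenorhabditis elegans* embryos of the Bristol strain N2, are described here on their own, as 6 of the 12 libraries deposited. They were chosen by their labels alone. N2_1, N2_2 and N2_3 belonged to experiment 1, in which they were sequenced beside 3 libraries of *set-2(tm1630)*, and 2N2_1, 2N2_2 and 2N2_3 to experiment 2, beside 3 libraries of *set-2(zr2012)*. Each library came from a pool of whole embryos. The eggs of synchronized young adults were released with hypochlorite and kept for 4 h at 20°C in M9 buffer, by which time most had reached mid-embryogenesis and the comma stage. No agent was given to any group. Because whole embryos were pooled, a gene that is high in few cells and a gene that is low in many cannot be told apart, nor can fewer cells of a type and less RNA per cell.

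At the comma stage most cell divisions of the worm embryo have ended, the epidermis has enclosed the body and the embryo begins to bend and elongate. Muscle cells assemble their first filaments, the pharynx and intestine take shape and neurons send out axons. Over the same period the epidermis starts to secrete the collagens and other matrix proteins that will cover the first larva. Maternal transcripts laid down in the oocyte belong to the first cell cycles and are mostly cleared before this stage, while the genes of sperm, yolk and most sensory receptors belong to later life.

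Gene counts summed to 25370532, 42335422 and 53080992 in N2_1, N2_2 and N2_3 and to 27796455, 21731533 and 42425059 in 2N2_1, 2N2_2 and 2N2_3. Levels are given as CPM, the usual short form of the counts of a gene per mega-count of its library, after scaling by edgeR's TMM method, whose factors ran between 0.836 in N2_1 and 1.15 in 2N2_2. A CPM value measures the reads that a gene took relative to the scaled library, so that it is close to a share of reads but not equal to it. Transcript lengths were not used, so that the order of 2 genes in CPM is an order of reads and not of molecules. Of the rows of the count tables, 18383 held at least 1 count in all 6 libraries, and a count of 0 in a library allowed at most 0.0598 to 0.141 CPM (3 counts, counting error only).

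A count of 0 did not by itself mark a silent gene. For 1939 protein-coding genes the tables held a second row named by a transcript of the same gene, and 71.4% of their gene rows were at 0 in every wild-type library, against 4.12% of the 17198 protein-coding gene rows with no other row. At least 1 CPM in all 6 libraries was reached by 97 of the 1939 gene rows with a second row and by 59.0% of those without one. *set-2* itself, the H3K4 methyltransferase gene mutated in the series, was such a gene. Its row was listed with 0.0471, 0.287 and 0.878 CPM in N2_1, N2_2 and N2_3 and with 0.283, 0.518 and 0.379 CPM in 2N2_1, 2N2_2 and 2N2_3, so its level could not be read from this row. The same held for *pha-4*, *elt-1*, *hmr-1* and *enol-1*, each with a second row and at 0 in all 6 libraries. Some genes were at 0 with no second row found, such as the paramyosin gene *unc-15*, the junction gene *ajm-1* and the actin gene *act-1*. How reads that matched several rows were counted is not given in the sources used here, and for such genes no statement on expression is made.

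The 6 libraries were not alike. Across the 13942 rows with a mean of at least 1 CPM, log2 CPM of 2N2_1 and 2N2_2 correlated at 0.996 (Pearson, across genes, which are not independent), whereas all other pairs of wild-type libraries lay between 0.843 and 0.924, within and between experiments. The counts of 2N2_1 and 2N2_2 differed by little more than counting error, with a chi-square of 1.92 per degree of freedom, against 118 to 591 for the other pairs of wild-type libraries. They were kept as 2 libraries, and results that change when they are averaged are given with the alternatives. The study's methods name independent experiments, and whether these 2 libraries share a source of RNA was not tested. If they do, n = 6 overstates the number of independent samples. A principal component that held 45.6% of the variance of the genes with a mean of at least 10 CPM set N2_3 apart, at 80.6 on that axis, from the other 5 libraries, at -38.2 to 14.6. The component after it held 28.1% and set N2_1 apart, at 65.7 against -33.1 to 9.79.

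2 libraries labelled wild type had a mutant library as their nearest library of the same experiment. With all 12 libraries scaled together and 9040 genes, N2_3 correlated at 0.803 to 0.822 with the *set-2(tm1630)* libraries, and at 0.720 and 0.812 with N2_1 and N2_2. N2_1 and N2_2 themselves reached only 0.509 to 0.619 with the *set-2(tm1630)* libraries. 2N2_3 correlated at 0.918 to 0.935 with the *set-2(zr2012)* libraries and at 0.879 and 0.883 with 2N2_1 and 2N2_2, and 2N2_1 and 2N2_2 themselves reached 0.909 to 0.930 with *set-2(zr2012)*. The labels were kept as deposited, and counts that rest on N2_3 and 2N2_3 are given with and without them.

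Of all rows, 11901 reached at least 1 CPM in all 6 libraries and are called expressed here. Among the 19137 protein-coding gene rows, 10236 or 53.5% were expressed. This share, set beside gene lists below, includes gene rows with a second row. Without such rows it was 59.0%. A further 22.1% of the protein-coding rows had reads but stayed under 1 CPM in every library, and are called low. Another 10.9% were at 0 in all 6. Of 13382 rows of piRNA loci, whose short transcripts are not what a poly(A) library captures, 28 passed the rule for expressed and 10750 were at 0. The piRNA rows with the most reads, 21ur-15312, 21ur-11407 and 21ur-13999, each had a second row for the same locus. No statement on the level of piRNAs is made from such rows. Leaving out N2_3 and 2N2_3, the number of genes expressed in all 6 wild-type libraries, then counted over the other 4, was 12298.

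Reads were spread over many genes. The 10 genes with the highest mean share of counts took 4.48% of the counts, and the top 100 genes took 20.7%. With each library ranked on its own, its top 100 genes took 34.4% of the counts in N2_1 and 17.8% to 20.9% in the other 5 libraries. Of the 100 genes with the highest mean CPM, 52 encoded cytosolic ribosomal proteins, 8 were variable (an SD of log2 CPM of at least 1 over the 6 libraries) and 1 was steady (an SD of at most 0.2). Of all rows with a mean of at least 10 CPM, 11.3% were variable and 2.06% steady.

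The gene with the most reads was *eef-1A.1*, which encodes the elongation factor that carries aminoacyl-tRNA to the ribosome. It took 11776, 7458 and 8709 CPM in N2_1, N2_2 and N2_3 and 4686, 4688 and 6870 CPM in 2N2_1, 2N2_2 and 2N2_3, a mean of 7364 ± 2678 CPM (SD, n = 6). Each library of experiment 1 was above each of experiment 2. The 2 experiments did not overlap for 20% of all rows with a mean of at least 10 CPM. The cuticle collagen genes *dpy-17* and *dpy-14*, whose loss makes worms short and stout, came next. *dpy-17* took 7230, 12804 and 4917 CPM in N2_1, N2_2 and N2_3 and 5407, 5247 and 7169 CPM in 2N2_1, 2N2_2 and 2N2_3. *dpy-14* was also highest in N2_2, with 10226 CPM, and had a median of 5547 CPM. Both collagens were thus highest in N2_2, and their SDs of log2 CPM were 0.51 and 0.43.

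**Figure D1:**
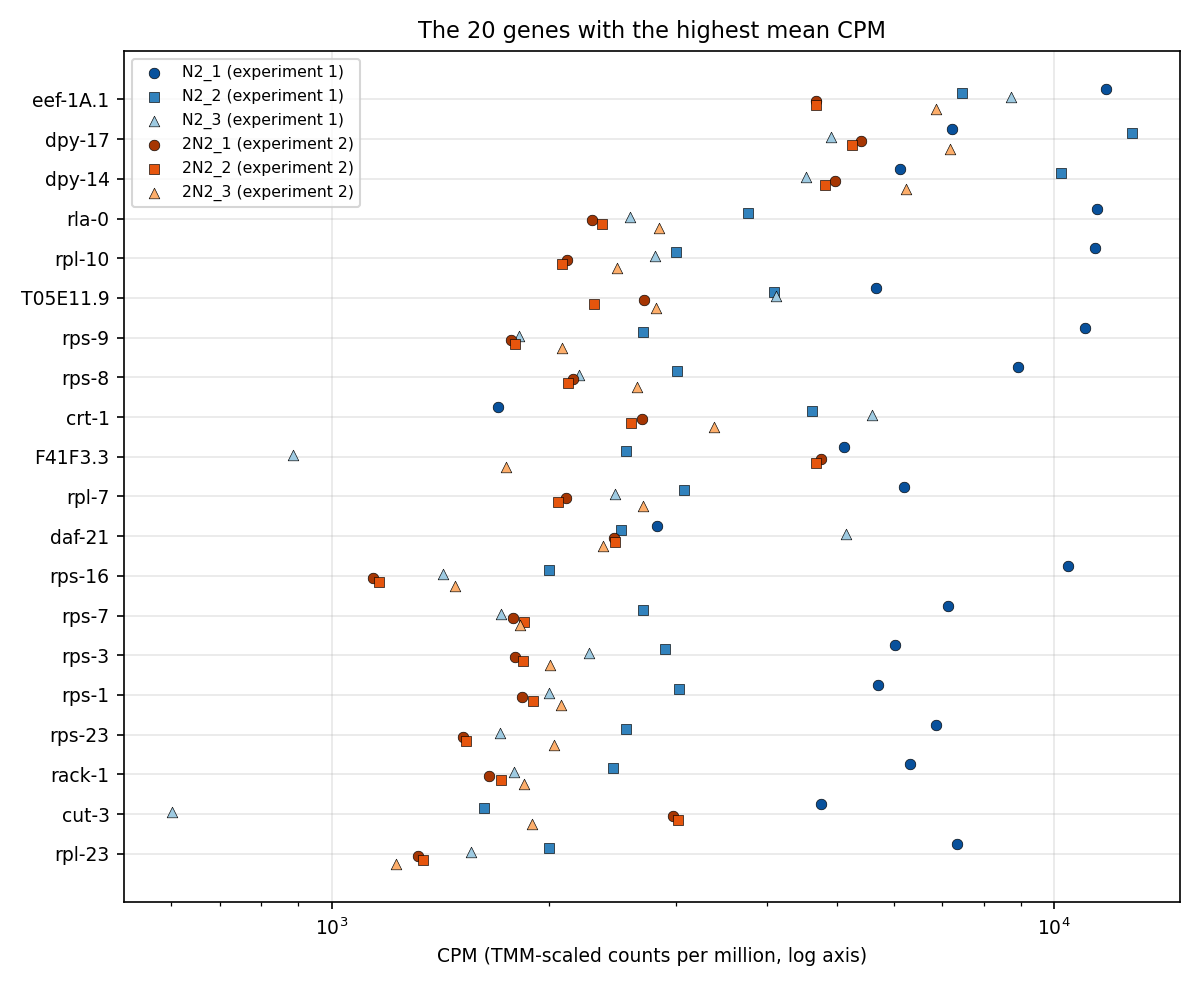
CPM (log axis) of the 20 genes with the highest mean CPM, with 1 point for each of the 6 wild-type libraries and the gene with the highest mean at the top. The ribosomal protein genes were highest in N2_1, as *rps-16* shows with 10457 CPM there and 1140 to 2002 CPM in the other 5 libraries, while *crt-1* was lowest in N2_1, at 1697 CPM.

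Among the next genes by reads, *rla-0*, the gene of the ribosomal stalk protein P0, took 11470 CPM in N2_1 and 2294 to 3769 CPM in the other libraries. *crt-1*, which encodes the calcium-binding chaperone calreticulin of the endoplasmic reticulum, was lowest there, with 1697 CPM in N2_1 and 2600 to 5592 CPM elsewhere. *daf-21*, the gene of the chaperone Hsp90, was close to level at 2372 to 2816 CPM except in N2_3, which had 5147 CPM. *cut-3*, which encodes a cuticlin of the extracellular matrix, spread from 602 CPM in N2_3 to 4752 CPM in N2_1. 2 genes without a gene name, T05E11.9 and F41F3.3, were also among the top 10, with medians of 3453 and 3622 CPM. F41F3.3 was lowest in N2_3, at 886 CPM, and highest in N2_1, at 5116 CPM.

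Genes of the protein-making machinery were expressed almost throughout. Of 80 cytosolic ribosomal protein genes, 70 were expressed, beside 53.5% of protein-coding rows, and 7 were at 0, 5 of these with a second row. Their summed level was 288555, 118106 and 81977 CPM in N2_1, N2_2 and N2_3 and 76090, 77141 and 84654 CPM in 2N2_1, 2N2_2 and 2N2_3. N2_1 therefore gave 24.1% of its counts to these genes, against 7.74% to 10.7% in the other 5 libraries. Of the 71 mitochondrial ribosomal protein genes, 69 were expressed, and their sums of 3110 to 5082 CPM did not set N2_1 apart, which had 4771 CPM.

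N2_1 differed in further lists. In a list of 16 genes of very long proteins, such as the spectraplakin gene *vab-10*, the ankyrin gene *unc-44* and the spectrin gene *unc-70*, drawn up after N2_1 had been seen to stand apart, the sum was 3489 CPM in N2_1 and 9251 to 12538 CPM elsewhere. *vab-10* alone had 596 CPM in N2_1 and 1851 to 2480 CPM in the other libraries. *ama-1*, which encodes the largest subunit of RNA polymerase II, had 62.6 CPM in N2_1 and 150 to 602 CPM elsewhere. The rRNA row *rrn-2.1* had 1913 CPM in N2_1 and 52.4 to 248 CPM elsewhere. The part of RNA quality or library preparation in these values was not tested.

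Of the other housekeeping complexes, 29 of 33 proteasome genes and 19 of 20 vacuolar ATPase genes were expressed, beside 53.5% of protein-coding rows. The proteasome degrades ubiquitin-tagged proteins, and its genes summed to 2443 to 2927 CPM in experiment 1 and to 1486, 1491 and 2472 CPM in 2N2_1, 2N2_2 and 2N2_3. None of the 29 proteasome genes, the 5 genes of the chaperonin CCT, the 18 of the vacuolar ATPase or the 69 mitochondrial ribosomal protein genes with a mean of at least 10 CPM was variable, where 11.3% of all such rows were. 3 of the 69 cytosolic ribosomal protein genes were variable. Without N2_3 and 2N2_3, 17 of 69 were, beside 7.89% of all such rows. N2_1 was among the libraries that remained.

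**Figure D2:**
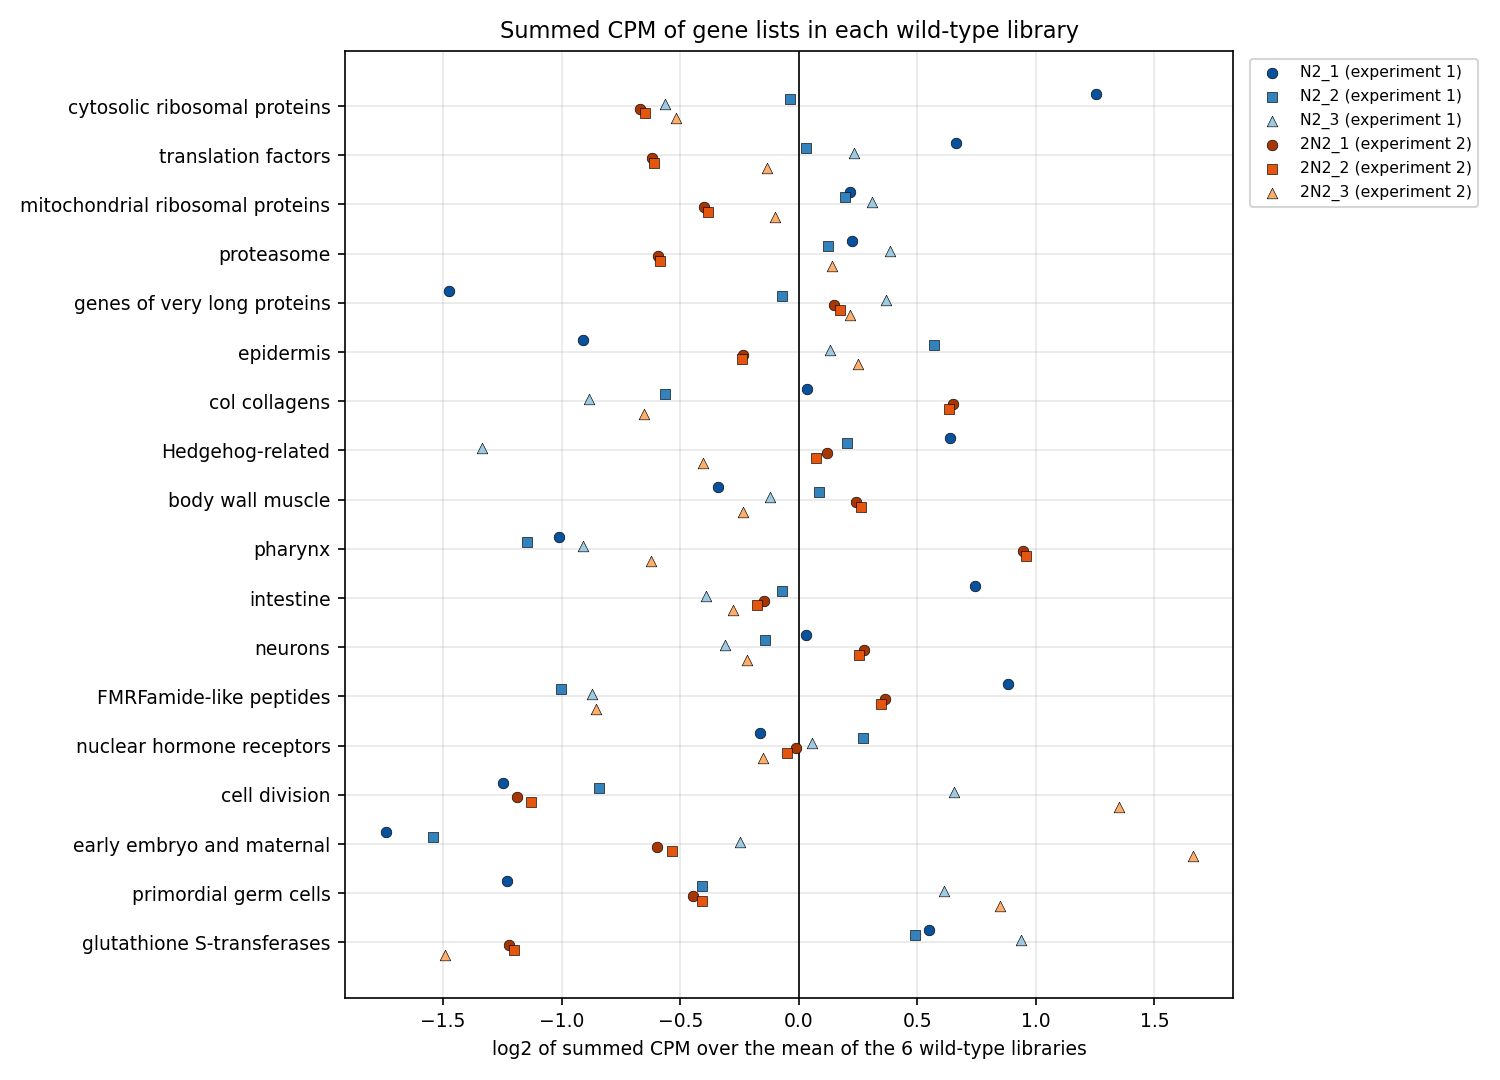
Summed CPM of 18 gene lists in each of the 6 wild-type libraries, as log2 of the sum over its mean in the 6 libraries. N2_1 lay above the other libraries for cytosolic ribosomal proteins (288555 CPM) and below them for genes of very long proteins (3489 CPM), 2N2_1 and 2N2_2 lay high for *col* collagens and the pharynx, and N2_3 and 2N2_3 lay high for cell division.

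The epidermis builds the cuticle. Of 26 epidermal genes listed, 12 were expressed, or 46.2% beside 53.5% of protein-coding rows, and 10 were at 0, 9 of these with a second row, so that *elt-1*, *elt-3* and *nhr-23* could not be judged. *noah-1* and *noah-2*, which encode matrix proteins of the embryonic sheath that precedes the cuticle, had means of 949 and 1043 CPM. *noah-1* took 522, 1559 and 1683 CPM in N2_1, N2_2 and N2_3 and 395, 372 and 1165 CPM in 2N2_1, 2N2_2 and 2N2_3. 2N2_1 and 2N2_2 were lowest. The lipocalin gene *lpr-3*, also of the early matrix, was lowest in N2_3, at 309 CPM, and highest in N2_2, at 1754 CPM. *lin-26*, a transcription factor gene of epidermal fate, was narrower, at 121 to 234 CPM.

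Collagens of the *col* family are, with *dpy-17* and *dpy-14*, the main building blocks of the cuticle. Of 154 genes, 68 were expressed, or 44.2% beside 53.5% of protein-coding rows, and 35 were low. Their sum was 18106 and 17909 CPM in 2N2_1 and 2N2_2, and 6244 to 11835 CPM in the other 4 libraries. *col-165* had 4053 and 4061 CPM in 2N2_1 and 2N2_2 and 797 to 2045 CPM elsewhere, and *col-74* had 3833 and 3762 CPM against 715 to 1463 CPM. *col-121*, the other of the 3 *col* genes with most reads, was lowest in 2N2_1 and 2N2_2, at 265 and 249 CPM, and highest in N2_2, at 1098 CPM. Of the 53 *col* genes with a mean of at least 10 CPM, 27 were variable, beside 11.3% of all such rows, with a median SD of 1.08 where that of all 8981 rows was 0.57. Without N2_3 and 2N2_3 the count was 27 of 54, beside 7.89% of all rows. *rol-6*, a cuticle collagen gene of later stages, was listed with 0.379 to 4.67 CPM.

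The Hedgehog-related genes (*wrt*, *grd*, *grl* and *hog*), secreted proteins of the worm that are mostly made by epidermal cells, were also spread widely. Of 55 genes, 33 were expressed, or 60% beside 53.5% of protein-coding rows. *wrt-1* took 1468, 1451 and 125 CPM in N2_1, N2_2 and N2_3 and 705, 686 and 721 CPM in 2N2_1, 2N2_2 and 2N2_3. N2_3 was thus the only low library for this gene, and the sum of the list was lowest there too, at 1789 CPM against 3409 to 7032 CPM. Of 31 Hedgehog-related genes with a mean of at least 10 CPM, 21 were variable, beside 11.3% of all rows, and 10 of 32 were without N2_3 and 2N2_3, beside 7.89%. The Patched-related genes, relatives of the Hedgehog receptor, were expressed in 23 of 27 cases, and 1 of 22 was variable.

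Many muscle genes had high levels. Of 26 body wall muscle genes, 19 were expressed, or 73.1% beside 53.5% of protein-coding rows. The 5 at 0 were *unc-15*, *act-4*, *dim-1*, *lev-11* and *atn-1*. *unc-54*, the main body wall myosin heavy chain gene, took 1332, 1769 and 2258 CPM in N2_1, N2_2 and N2_3 and 2905, 2965 and 1598 CPM in 2N2_1, 2N2_2 and 2N2_3. *pat-10*, which encodes muscle troponin C, had a median of 1748 CPM and a range of 1305 to 2324 CPM. *unc-112*, whose kindlin protein sits at the attachments of muscle to the body wall, was among the steadiest genes of its level, with 537 to 692 CPM and an SD of 0.15. Of 18 muscle genes with a mean of at least 10 CPM, 2 were variable, or 11.1% beside 11.3% of all rows. These were *unc-52*, the perlecan gene, with 4.59 to 35.5 CPM and further rows, and the giant protein gene *unc-22*, with 138 CPM in N2_1 and 814 and 846 CPM in 2N2_1 and 2N2_2.

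Several pharyngeal genes set 2N2_1 and 2N2_2 apart. *myo-2*, the pharyngeal myosin heavy chain gene, took 316, 376 and 540 CPM in N2_1, N2_2 and N2_3 and 2183, 2228 and 659 CPM in 2N2_1, 2N2_2 and 2N2_3. *myo-1*, the other pharyngeal myosin gene, had 1694 and 1713 CPM in 2N2_1 and 2N2_2 and 267 to 484 CPM elsewhere, and the troponin gene *tni-4* had 999 and 991 CPM against 237 to 379 CPM. *tbx-2*, a T-box transcription factor gene of the anterior pharynx, did not share this pattern, at 61.3 to 131 CPM. Nor did *pha-1*, which was highest in N2_3, at 90.4 CPM, with 30.2 to 44.5 CPM elsewhere. *tnc-2* had 506 CPM in 2N2_1 and in 2N2_2, 431 CPM in N2_1 and 138 to 185 CPM elsewhere. Of the 6 listed genes with a mean of at least 10 CPM, 4 were highest in 2N2_1 or 2N2_2, as were 7 of 18 body wall muscle genes. The same share over all rows is not given here. The whole list of 9 pharyngeal genes, with *pha-4* and *ceh-22* at 0, summed to 5531 and 5585 CPM in 2N2_1 and 2N2_2 and to 1299 to 1867 CPM in the other libraries.

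Of 14 intestinal genes, 10 were expressed, or 71.4% beside 53.5% of protein-coding rows. *elt-2*, the GATA factor gene that maintains intestinal fate, had 49.5, 51.4 and 39.5 CPM in N2_1, N2_2 and N2_3 and 20.4, 23.1 and 47.7 CPM in 2N2_1, 2N2_2 and 2N2_3. The peptide transporter gene *pept-1* was variable, with 27.2 CPM in N2_3 and 140 to 226 CPM elsewhere. *asp-1*, an aspartyl protease gene of the gut, was highest in N2_1, at 1763 CPM, and had 549 to 983 CPM in the others.

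Neuronal genes of all steps, from fate to release of transmitter, were present. Of 37 genes, 28 were expressed, or 75.7% beside 53.5% of protein-coding rows, and 1 was low. The 7 at 0 (*unc-119*, *unc-18*, *unc-10*, *mec-3*, *unc-30*, *ttx-3* and *egl-3*) all had a second row. *unc-86* and *unc-42*, homeobox genes of neuronal identity, had 72.8 to 129 CPM and 66.7 to 115 CPM. *unc-4*, a homeobox gene of motor neuron identity, was variable, with 2.43 CPM in N2_3 and at least 8.65 CPM in each other library. The proneural genes *ngn-1* and *hlh-14* were highest in N2_3, at 32.0 and 38.6 CPM, against 4.31 to 10.8 and 12.3 to 22.3 CPM in the other libraries. Of the 23 neuronal genes with a mean of at least 10 CPM, 10 were highest in 2N2_1 or 2N2_2, 6 in N2_2, 3 each in N2_1 and N2_3, and 1 in 2N2_3. The share of all rows highest in each library is not given here. These counts are therefore a description and not a trait of neuronal genes. *unc-17*, the vesicular acetylcholine transporter gene, had 60.6 and 61.8 CPM in 2N2_1 and 2N2_2 and 14.7 to 35.2 CPM elsewhere. *snt-1*, the synaptotagmin gene, had 190 and 184 CPM in 2N2_1 and 2N2_2 against 65.9 to 94.4 CPM. *snb-1*, the synaptobrevin gene, was instead highest in N2_1, at 518 CPM, with 221 to 358 CPM elsewhere. *cat-2*, needed for dopamine, had 15.2 and 15.7 CPM in 2N2_1 and 2N2_2 and 3.67 to 4.71 CPM elsewhere.

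Neuropeptide genes were mostly on at this stage. Of 31 *flp* genes, which encode FMRFamide-like peptides, 27 were expressed, or 87.1% beside 53.5% of protein-coding rows. Of the 23 with a mean of at least 10 CPM, 10 were variable, beside 11.3% of all rows. The sum of the *flp* genes was 1303 CPM in N2_1, 909 and 900 CPM in 2N2_1 and 2N2_2, and 353 to 391 CPM in N2_2, N2_3 and 2N2_3. Of 81 *nlp* genes, 63 were expressed, or 77.8%, and 15 of 43 were variable. Without N2_3 and 2N2_3 the counts were 11 of 24 *flp* and 17 of 48 *nlp* genes, beside 7.89% of all rows. N2_1 was among the libraries that remained. With all 6 libraries, 20 of the 23 *flp* and 35 of the 43 *nlp* genes were highest in N2_1. The same share over all rows is not given here. The *nlp* sum was 4176 CPM in N2_1 and 1050 to 2325 CPM elsewhere. The insulin-like peptide genes were sparser, with 8 of 40 expressed, or 20%, and a median SD of 0.98 over the 5 with enough reads. Their sum was 297 CPM in N2_1 and 91.7 to 132 CPM elsewhere.

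Receptors and channels of neurons differed from the chemoreceptors. Of 78 genes of acetylcholine receptors and other ligand-gated channels, 54 were expressed, or 69.2% beside 53.5% of protein-coding rows. So were 22 of 31 receptor guanylyl cyclases (71.0%) and 32 of 53 potassium channels (60.4%), the last close to the share of protein-coding rows. Of 1326 chemoreceptor genes, the largest family counted here apart from the piRNA loci, 58 were expressed and 955, or 72.0%, were low, beside the 22.1% of protein-coding rows. The chemoreceptor with the most reads, *str-173*, reached 24.2 to 58.1 CPM. Receptors of this kind are mostly known from single types of sensory neuron.

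**Figure D3:**
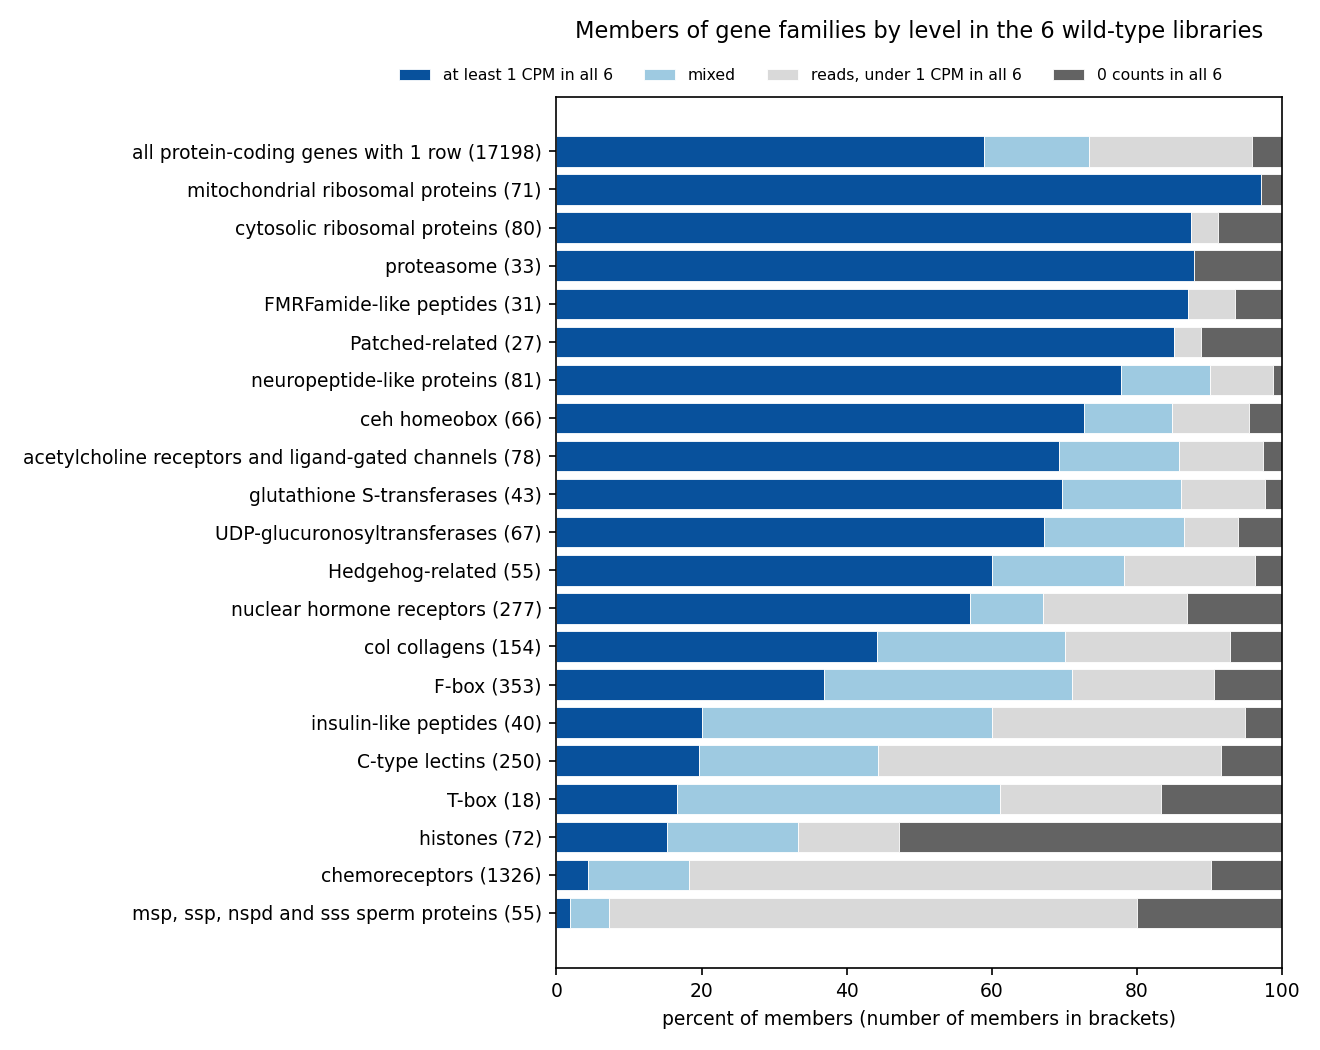
Percent of the members of 20 gene families and of all 17198 protein-coding genes with 1 row that were expressed (at least 1 CPM in all 6 wild-type libraries), mixed, low (reads, but under 1 CPM in all 6) or at 0. Ribosomal, proteasome and neuropeptide families lay at the expressed end, and chemoreceptors (4.37% expressed) and sperm proteins (1.82%) at the other.

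Most of the transcription factor families listed were expressed to a degree near or above that of protein-coding genes at large. That was 53.5% of all protein-coding rows and 59.0% of those with no second row. Of 66 *ceh* homeobox genes, 48 were expressed, or 72.7% beside 53.5% of protein-coding rows. So were 158 of 277 nuclear hormone receptors (57.0%) and 15 of 25 basic helix-loop-helix genes (60%), both close to that share. T-box genes were an exception, with 3 of 18 expressed, namely *tbx-2*, *tbx-8* and *tbx-9*. The nuclear hormone receptors were even between libraries, with a sum of 4499 to 6083 CPM and a median SD of 0.43. Of 110 with a mean of at least 10 CPM, 1 was variable, beside 11.3% of all such rows. This was *nhr-62*, named after its values were seen, at 52.4 to 308 CPM. *ceh-32*, a Six-type homeobox gene of the head, had 105 to 190 CPM. *ceh-20*, a cofactor of Hox proteins, had 142 to 270 CPM.

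Genes of sperm and yolk had few reads. Of 55 genes of the *msp*, *ssp*, *nspd* and *sss* sperm protein families, 1 was expressed, R74.10 at 5.15 to 25.7 CPM, and 40 were low. Of all protein-coding rows, 53.5% were expressed and 22.1% low. None of 7 further sperm genes was expressed, and their sum was 3.72 to 11.1 CPM. The yolk protein genes, made in the adult intestine, summed to 3.63 to 13.2 CPM over 5 genes, and *vit-1* alone was expressed. Of 11 oocyte and eggshell genes, 8 were expressed, at low levels that summed to 20.8 to 59.6 CPM, led by *cbd-1*, an eggshell chitin-binding protein gene, at 3.44 to 16.8 CPM. Of 72 histone genes, 11 were expressed and 38 were at 0, only 2 of these with a second row. Histone and sperm protein genes have near-identical copies, so their counts at 0 are uncertain.

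Transcripts of several early embryo genes had a wide spread. Of 26 early and maternal genes, 15 were expressed, or 57.7% beside 53.5% of protein-coding rows. Of the 10 with a mean of at least 10 CPM, 8 were variable, beside 11.3% of all rows. Without N2_3 and 2N2_3, 4 genes reached that mean and 2 of the 4 were variable, beside 7.89%. *oma-1*, *mex-1* and *zif-1* had 49.5, 40.4 and 44.4 CPM in 2N2_3 and at most 8.38, 9.60 and 8.81 CPM elsewhere. Such genes passed the filter on the mean only through 2N2_3. A high SD is then built in by the filter, so the count of variable genes is a description only. *pos-1*, a zinc finger gene of maternal RNA control, took 7.40, 1.15 and 32.1 CPM in N2_1, N2_2 and N2_3 and 18.1, 21.1 and 170 CPM in 2N2_1, 2N2_2 and 2N2_3. *spn-4* had 114 CPM in 2N2_3 and 2.40 to 29.5 CPM elsewhere, and *mex-5*, which sets up polarity of the first cell, had 83.4 CPM in 2N2_3 and 2.74 to 21.6 CPM elsewhere. 2N2_3 was the highest library for all 3, and N2_2 the lowest. The germ granule gene *meg-1* followed them, with 47.5 CPM in 2N2_3 and 0.391 to 8.48 CPM in the others. The early endoderm genes differed between the 2 libraries. *end-1* had 2.79 CPM in 2N2_3 and at most 0.189 CPM elsewhere, whereas *end-3* had 8.50 CPM in N2_3 and 0.283 to 1.78 CPM elsewhere. *par-2*, a polarity gene of the same list with a second row, had a narrow range of 12.7 to 21.1 CPM.

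Cell division genes were highest in 2N2_3 and N2_3. Their sum over 28 genes was 595, 787 and 2223 CPM in N2_1, N2_2 and N2_3 and 620, 645 and 3605 CPM in 2N2_1, 2N2_2 and 2N2_3. *cyb-3*, a cyclin B gene, had 587 CPM in 2N2_3, 193 CPM in N2_3 and 54.7 to 67.5 CPM in the other 4. *top-2*, the topoisomerase II gene, had 403 CPM in 2N2_3 and 253 CPM in N2_3 beside 27.5 to 83.0 CPM. The replication genes *mcm-7* and *pcn-1* were highest in 2N2_3, at 233 and 179 CPM, followed by N2_3 at 77.6 and 64.8 CPM. Of 22 such genes with a mean of at least 10 CPM, 16 were variable with all 6 libraries, beside 11.3% of all rows, and 0 of 20 without N2_3 and 2N2_3, beside 7.89%. The part of embryo age in these values was not tested.

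Over all 8981 rows with a mean of at least 10 CPM, the SD of log2 CPM over the 6 libraries had a median of 0.57, a 5th percentile of 0.25 and a 95th percentile of 1.24. Within experiment 1 the median SD was 0.63 (n = 3), and within experiment 2 it was 0.27 (n = 3), where 2N2_1 and 2N2_2 were almost alike. In the mutant libraries, which took no part in choosing genes, the same rows that reached a mean of 10 CPM had a median SD of 0.18 in *set-2(tm1630)* and 0.09 in *set-2(zr2012)*, beside 0.63 and 0.27 in wild type of the same experiments.

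**Figure D4:**
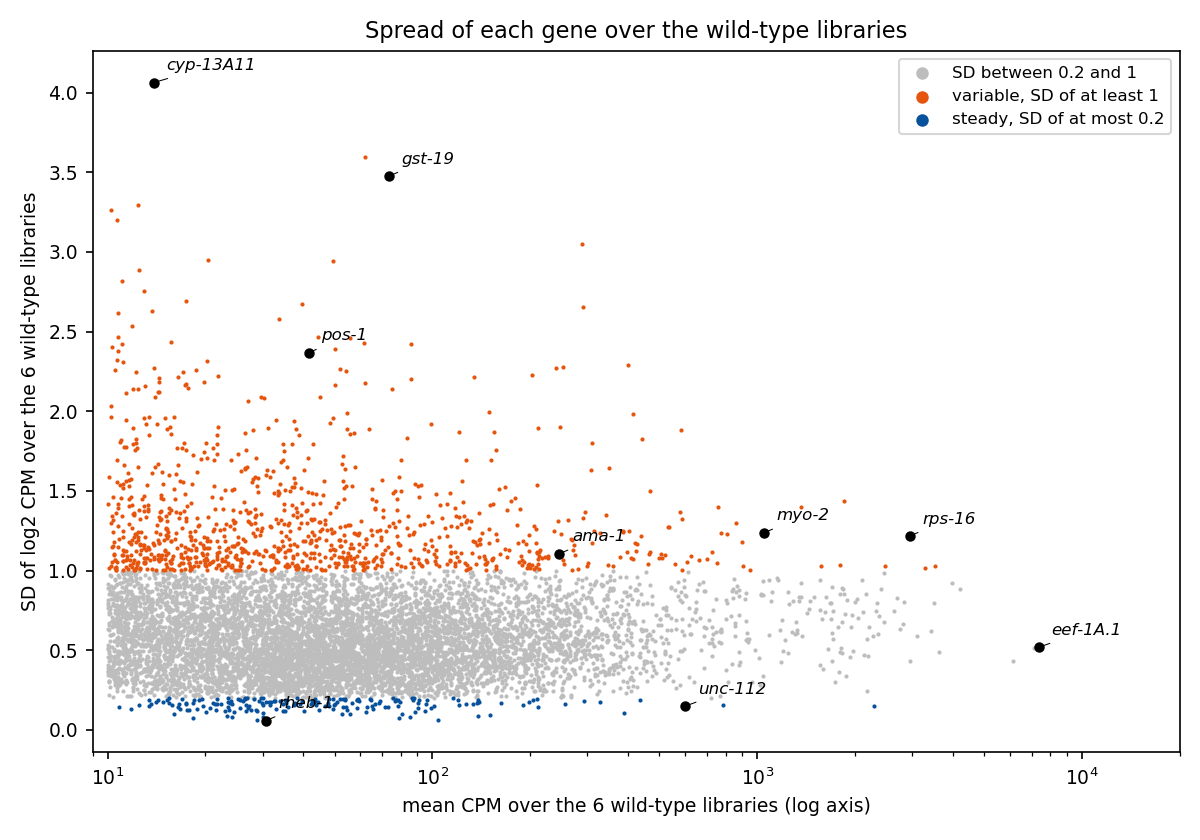
SD of log2 CPM over the 6 wild-type libraries against mean CPM (log axis) for the 8981 rows with a mean of at least 10 CPM, with 9 genes named. Variable rows (SD of at least 1) made up 11.3% and steady rows (SD of at most 0.2) 2.06%, and both kinds occurred over most of the range of levels.

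The steady rows numbered 185, or 2.06% of those with a mean of at least 10 CPM. The lowest SD, 0.06, was that of *rheb-1*, the gene of a small GTPase that acts on the TOR kinase. It took 30.2, 30.4 and 32.2 CPM in N2_1, N2_2 and N2_3 and 30.5, 29.2 and 32.3 CPM in 2N2_1, 2N2_2 and 2N2_3. *hrdl-1*, related to an E3 ubiquitin ligase of the endoplasmic reticulum, had 99.2 to 110 CPM, and *tre-1*, a trehalase gene, had 74.6 to 85.4 CPM. The other named genes among the lowest 12 were *snpn-1* (snapin, a vesicle protein), *nud-2* (a dynein regulator), *blos-1* (a BLOC-1 subunit), *dpyd-1* (dihydropyrimidine dehydrogenase) and *syx-16* (a syntaxin), at means of 23.2 to 150 CPM, with Y59A8B.21, T02C5.1 and 2 rows named by transcripts. Scaling to total counts left only 4 of the 12 steady. All 12 stayed steady when any 1 library was left out. Rows chosen for the lowest SDs over these same libraries could hardly fail that check, so it adds no support.

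Genes steady in wild type were also looked up in the mutants. *rheb-1* had 53.4, 40.8 and 47.5 CPM in *set-2(tm1630)* and 30.6, 34.9 and 33.4 CPM in *set-2(zr2012)*, with all 12 libraries scaled together, beside its 29.2 to 32.3 CPM in wild type. Among the 174 steady rows with a mean of at least 10 CPM in *set-2(tm1630)*, 115 had an SD of at most 0.2 there, beside 4428 of 7685 rows in all. In *set-2(zr2012)* the counts were 177 of 178 and 7715 of 8340.

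Of genes often used as references for quantitative PCR, 14 were listed, of which *act-1*, *pmp-3* and *tba-1* were at 0. *tbb-2*, a beta-tubulin gene, ran from 399 to 1173 CPM and *gpd-3*, a glyceraldehyde-3-phosphate dehydrogenase gene, from 293 to 905 CPM. *ama-1*, whose levels are given above, was the only variable gene of the 11 with reads, and 0 of the 11 were steady, beside 2.06% of all rows with a mean of at least 10 CPM. Among glycolytic genes *pyk-1*, a pyruvate kinase gene, was steady at 108 to 137 CPM.

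**Figure D5:**
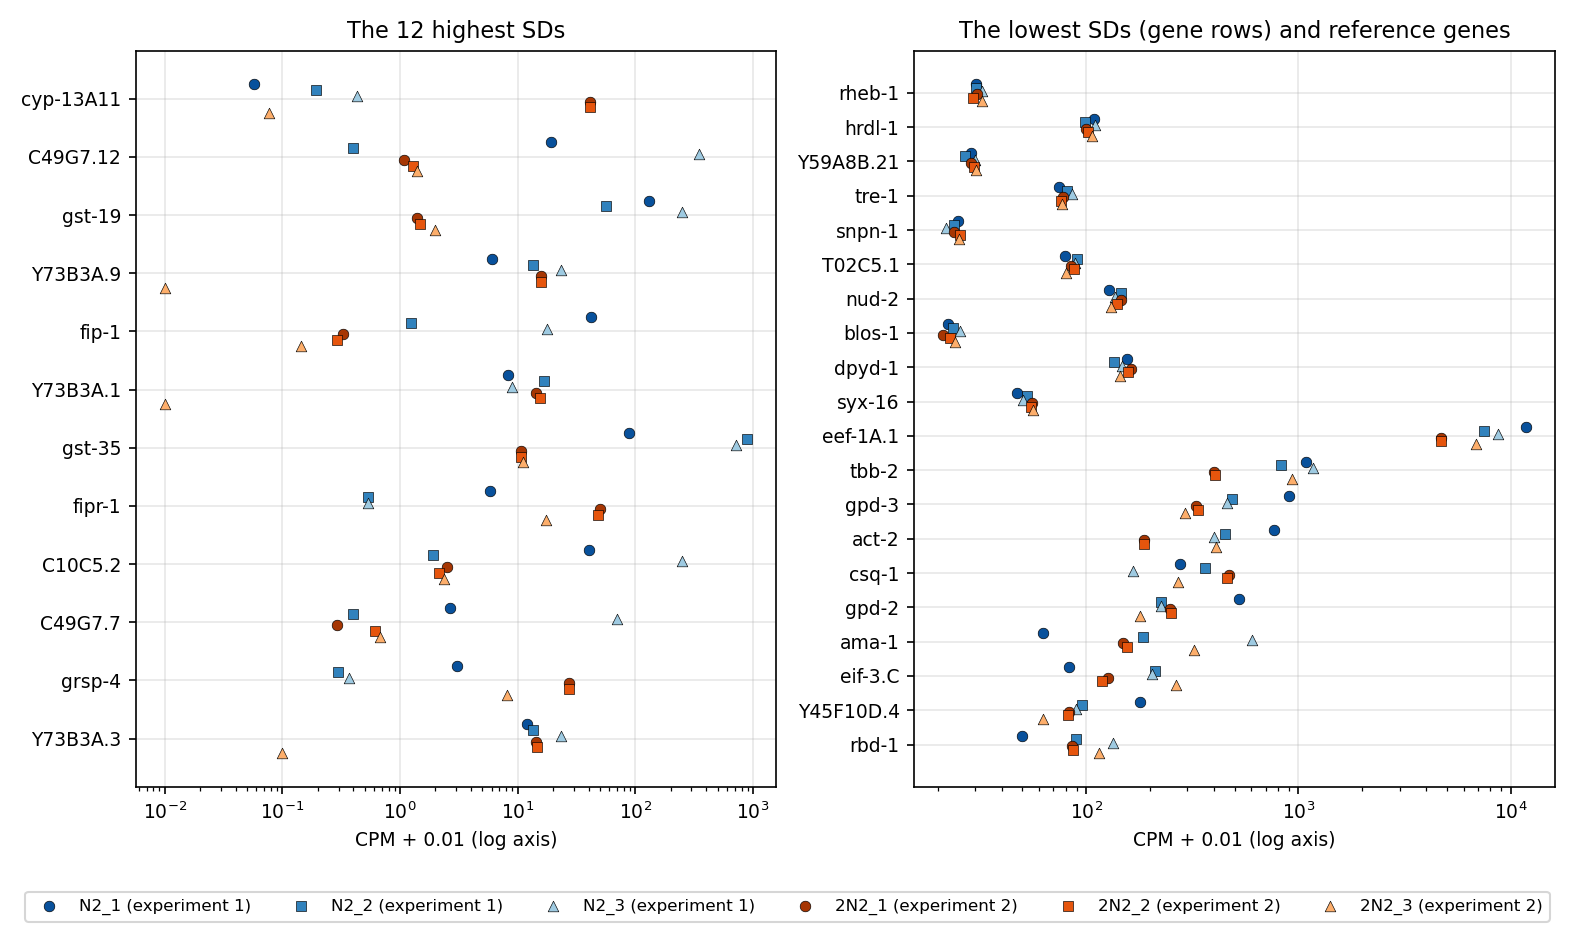
CPM + 0.01 (log axis) in each wild-type library of the 12 genes with the highest SD of log2 CPM (left) and of the gene rows among the 12 with the lowest SD, followed by 10 genes used as references for quantitative PCR (right). *rheb-1* stayed between 29.2 and 32.3 CPM, while *cyp-13A11* had 41.4 and 41.1 CPM in 2N2_1 and 2N2_2 and under 0.42 CPM in the other 4 libraries.

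The variable rows numbered 1016, or 11.3%. Of these, 793 had an SD of at least 1 within experiment 1, 247 within experiment 2, 150 within both and 126 within neither. For 221 of the 1016 the libraries of the 2 experiments did not overlap, as they did not for 20% of all 8981 rows. In 282 the highest library was N2_3 and in 299 it was N2_1. The lowest was N2_3 in 318, N2_2 in 260 and N2_1 in 159. The same shares over all 8981 rows are not given here, so these counts are a description only. Of the 1016, 211 remained variable when any 1 library was left out. Where both N2_3 and 2N2_3 were left out, 702 rows were variable.

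Several detoxification genes differed between the experiments. *gst-19*, a glutathione S-transferase gene, took 131, 56.4 and 250 CPM in N2_1, N2_2 and N2_3 and 1.38, 1.47 and 1.98 CPM in 2N2_1, 2N2_2 and 2N2_3. *gst-35* had 88.1, 892 and 720 CPM against 10.6, 10.7 and 11.1 CPM, and *gst-4*, a target of the oxidative stress factor SKN-1, had 445, 296 and 406 CPM against 24.1, 23.8 and 20.4 CPM, in the same order of libraries. The 2 experiments did not overlap for any of the 3, as they did not for 20% of all rows with a mean of at least 10 CPM. *gst-19* and *gst-35* were named for their high SD. The whole family of 43 genes summed to 2769 to 3771 CPM in experiment 1 and to 700 to 858 CPM in experiment 2, and 13 of the 23 with a mean of at least 10 CPM were variable, beside 11.3% of all rows. Without N2_3 and 2N2_3, 10 of 24 were, beside 7.89%. The heat-inducible chaperone genes did not follow. *hsp-16.2* was highest in 2N2_3, at 93.4 CPM, and lowest in N2_2, at 3.57 CPM, and 4 other *hsp-16* rows were at 0, where near-identical copies make the counts uncertain.

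Other variable genes split the libraries in their own ways. *cyp-13A11*, a cytochrome P450 gene, had the highest SD among rows with a mean of at least 10 CPM, 4.06. It had 41.4 and 41.1 CPM in 2N2_1 and 2N2_2 and 0.0471 to 0.419 CPM in the other 4. *fipr-1* and *grsp-4*, small secreted proteins, had 50.3 and 27.4 CPM in 2N2_1, 17.3 and 8.14 CPM in 2N2_3 and at most 5.84 and 3.02 CPM in experiment 1. *fip-1*, in contrast, had 41.8 CPM in N2_1 and 17.7 CPM in N2_3 and at most 1.23 CPM elsewhere. C49G7.12, C49G7.7 and C10C5.2 (*fbxc-58*, an F-box gene) were highest in N2_3, at 349, 70.5 and 248 CPM, with N2_1 next, C10C5.2 having 40.5 CPM there, and at most 2.52 CPM in the other 4 libraries. These 3 genes were also high in *set-2(tm1630)*, with 398 to 455, 153 to 194 and 662 to 1067 CPM, and under 2 CPM in *set-2(zr2012)*. The mutant values came from scaling all 12 libraries together, the wild-type values from scaling the 6 wild-type libraries. *cyp-13A11* passed the filter on the mean only through 2N2_1 and 2N2_2. C49G7.12 and C49G7.7 passed it only through N2_3, and *fip-1* only through N2_1 and N2_3. For such genes a high SD is built in by the filter, so their rank by SD is a description only.

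A few genes were on or off in a single library. By the rule of under 0.3 CPM in 1 library and at least 5 CPM in the other 5, R05D8.11 was off in N2_3, at 0.140 CPM against 12.7 to 13.2 CPM. Y73B3A.1, Y73B3A.3, Y73B3A.9 and Y73B3A.18 were off in 2N2_3, at 0, 0.0892, 0 and 0.111 CPM, against 5.14 to 23.3 CPM in the other 5. The same 4 genes were at or under 0.270 CPM in all 3 libraries of *set-2(zr2012)* and at 4.00 to 21.4 CPM in those of *set-2(tm1630)*. With the rule turned round, F38C2.7, T12A2.3, ZC239.20, ZC239.21 and ZK899.6 were on in 2N2_3, at 5.59 to 6.15 CPM, and under 0.3 CPM in the other wild-type libraries. They had 2.15 to 8.02 CPM in *set-2(tm1630)* and 0.168 to 0.969 CPM in *set-2(zr2012)*. Mutant values in this paragraph were scaled with all 12 libraries together. What sets these genes was not tested.

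Variable genes lay next to each other in places. Of 4212 pairs of neighbouring protein-coding genes, in the RefSeq order of WBcel235, with both members at a mean of at least 10 CPM, 727 held at least 1 variable gene and 96 held 2. Of all rows with such a mean, 11.3% were variable. How many such pairs genes in random order would give was not worked out. The longest run was that of *nlp-34*, *nlp-31*, *nlp-30*, *nlp-29*, *nlp-28* and *nlp-27*, 6 neighbouring genes of antimicrobial-type peptides made in the epidermis. *nlp-29* took 289, 108 and 432 CPM in N2_1, N2_2 and N2_3 and 128, 120 and 55.5 CPM in 2N2_1, 2N2_2 and 2N2_3. Other runs were *gst-12*, *gst-16* and *gst-19*, *grd-13*, *grd-3* and *grd-10*, and *col-167*, *col-168* and *col-169*. Members of such runs are often related in sequence, and shared reads could not be told apart from shared levels.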

How the data were processed

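RNA from pooled embryos was made into TruSeq v2 libraries and sequenced on an Illumina NextSeq. The authors trimmed reads with Trimmomatic 0.36.0, and the deposited files hold raw counts per row from HTSeq 0.9.1 on ce10 (WS220), 1 file a library. The aligner and strand setting are not given in the sources used here. RNA came from separate experiments per genotype by the study's methods, and groups follow the labels. Rows were matched to RefSeq (WBcel235) for names and neighbours only, and 1481 stayed unmatched. Counts of the 6 libraries were scaled by TMM in edgeR 4.0.16 (R 4.3.3), with a prior count of 2 for log2 CPM, and DESeq2 1.42.0 gave alternative size factors. No test between groups was run, since there is a single group, and libraries were screened for outlying values by Dixon's rule. The computation of spreads was tested on simulated data. Named genes were the 20 with the highest mean CPM, the 12 with the lowest and the 12 with the highest SD, *set-2*, marker genes and up to 3 top members of each family. Other genes, namely those on or off in 1 library, in runs, in the list of very long proteins or singled out in the text, were chosen after their values were seen. The members and lists were chosen with earlier results of these data known. *vit-3*, *pfk-1.1*, *pfk-1.2* and *pyk-2* had no row under these names. The values of 1 reference gene are not reported here.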

Additional observations from a re-analysis of the deposited data

Results flagged for a closer look

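Among 103 measures screened for a library far from the other 5 (Dixon's rule at the 95% level), the following stood out. Chance flags about 1 in 20 measures, but this rate does not apply to genes picked for a high SD or to a list drawn up after a library was seen to stand apart, and the measures share libraries and genes. N2_1 was far above the other libraries in its percent of counts in ribosomal protein genes, 24.1%, and in its own 100 genes with most reads, 34.4%. Its summed levels were also highest for cytosolic ribosomal proteins (288555 CPM), the vacuolar ATPase (15056 CPM), actins (1869 CPM), histones (3502 CPM), insulin-like peptides (297 CPM) and transthyretin-related proteins (7934 CPM). The same held for ribosomal RNA (1913 CPM), the intestinal list (4675 CPM) and glycolysis (6060 CPM). N2_1 was the lowest library for the genes of very long proteins, at 3489 CPM, in a list drawn up after N2_1 was seen to stand apart, so that this value is a description only.

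Single genes of the ribosome were highest in N2_1. These were *rla-0* (11470 CPM), *rpl-10* (11390 CPM), *rps-9* (11027 CPM), *rps-8* (8912 CPM), *rpl-7* (6205 CPM), *rps-16* (10457 CPM), *rps-7* (7123 CPM), *rps-3* (6027 CPM), *rps-1* (5701 CPM), *rps-23* (6869 CPM), *rack-1* (6323 CPM) and *rpl-23* (7337 CPM). N2_2 was highest for the collagens *dpy-17* (12804 CPM) and *dpy-14* (10226 CPM). N2_3 was highest for the F-box family (3986 CPM), *daf-21* (5147 CPM), C49G7.12 (349 CPM), C10C5.2 (248 CPM) and C49G7.7 (70.5 CPM), the last 3 of which were named for their high SD. 2N2_3 was highest for early embryo and maternal genes, at 769 CPM.

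In the mutant libraries, 5 rows had at least 10 counts in every *set-2(tm1630)* library while all 6 wild-type libraries were at 0. They were F07G6.9 (45, 16 and 26 counts), F52E10.11 (26, 10 and 25 counts), K08B5.8 (30, 14 and 16 counts) and the piRNA loci 21ur-15095 (36, 27 and 30 counts) and 21ur-5184 (23, 20 and 17 counts). The *set-2(zr2012)* libraries had 0 or 1 count of each, and no row passed the same rule there.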

How the results depend on the processing

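The numbers of genes expressed, with a count and at 0 stayed within 1.5 times of their values under each alternative run. The share of the 10 and 100 genes with most reads was 7.83% and 34.4% in N2_1 alone. The median SD of log2 CPM was 0.27 in experiment 2 only, 0.46 without both replicate 3 libraries, and 0.47 to 0.61 with each library left out in turn. The number of variable genes was 2362 from a mean of 1 CPM, 376 from 50 CPM, 354 by edgeR's tagwise biological coefficient of variation and 208 by it with an experiment term, and 639 (without N2_3) to 1185 with each library left out. The number of steady genes was 76 from a mean of 50 CPM, 347 with total counts, 564 by the SD pooled within experiments, 0 by the coefficient of variation with or without the term, 121 with 2N2_1 and 2N2_2 averaged and 934 without both replicate 3 libraries. With each library left out they numbered 121 (without 2N2_1) to 585 (without N2_1), with 383 without N2_2 and 561 without N2_3. With each library left out in turn, 211 of 1016 variable and 93 of 185 steady rows kept their call throughout. Of the 12 genes with the highest SD, 3 stayed variable throughout. Of the list counts, 1379 stayed within 1.5 times and 133 moved, and all 378 list sums moved by less than 1 SD. The averaging and the removal of both replicate 3 libraries were chosen after seeing the data. Levels per kilobase and promoter motifs were not run, as no lengths or sequences were used here. No paired analysis was possible because the results come from no test and a single group. Depth limits the low end, where a count of 0 allowed up to 0.141 CPM.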
